A study of Arabidopsis thaliana with 4 samples.

Results

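UVR8, RUP1, RUP2, ELIP1 and ELIP2 were followed as 5 loci chosen by their identifiers (AT5G63860, AT5G52250, AT5G23730, AT3G22840 and AT4G14690), out of 33558 loci in the deposited expression table. All 5 were in the table, and all 5 averaged 10.8 normalized counts or more, as 20111 loci did. The RNA was taken from Arabidopsis thaliana shoots at an age of 7 d, in the accession Col-0 and in a line labelled hfr1-4pil1-2, written hfr1 pil1 here, which carries mutations in HFR1 and PIL1, both regulators of the shade response. White light groups stayed in continuous white light for 7 d (30 to 50 µE, a ratio of red to far-red of 1.2, 22 °C). Low R:FR groups had 3 d of that light and then 96 h under lamps giving red light at 13 µE, blue at 1.23 µE and far-red at 20 µE, which mimics the shade of neighbouring leaves. All groups shared sucrose-free agar. The amount of light, and of blue light, changed together with the red to far-red ratio, and the effects of these cannot be told apart. The labels list no UV-B treatment and give no UV content of either light.

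UVR8 is the photoreceptor for UV-B. After absorbing UV-B it changes from a dimer to monomers and binds the ubiquitin ligase COP1, which lets the bZIP transcription factor HY5 build up and switch on protective genes. RUP1 and RUP2 are related WD40-repeat proteins that bind UVR8 and return it to the inactive dimer, a negative feedback, since their own genes are induced by UV-B. ELIP1 and ELIP2 are early light-induced proteins of the thylakoid membrane. They belong to the extended family of chlorophyll a/b-binding proteins, are known to be induced by strong light and UV-B, and are used as marker genes of UVR8 and HY5 activity.

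The deposited values are read counts divided by 1 factor per library, called normalized counts here. Both Col-0 columns are the authors' means, and their values resolved into whole reads of 2 libraries each, so 6 libraries were tested, with 1 for each hfr1 pil1 group. The test took the spread of the lone hfr1 pil1 libraries to be that of Col-0. Nothing says whether the libraries of 1 condition came from separate plants, so p-values measure only how these libraries vary, which may be technical. The reads counted per library were between 7358583 and 14684713, both in hfr1 pil1, where no gene was left out. The Col-0 totals lack the most abundant genes, which could not be split. These genes held 17.7% of the white light column and 15.1% of the low R:FR column, so Col-0 depth is understated. HFR1 stood at 22.2 and 33.6 normalized counts in Col-0 white light, at 2046 and 2359 in Col-0 low R:FR, and, for the libraries labelled hfr1 pil1, at 189 (white light) and 2112 (low R:FR). PIL1 stood at 12.7 and 20.4, at 241 and 313, and at 220 and 1574 in the same order. The transcripts of the mutated genes were thus not low in the libraries labelled hfr1 pil1 and do not check those labels, on which every direction between genotypes rests. None of 5 green tissue markers was at 0 in any group. Summed, they went from 193529 in white light to 102793 normalized counts in low R:FR in Col-0 and from 198464 to 93870 in hfr1 pil1, mostly through RBCS1A. None of 9 root markers was at 0 either, although the labels name shoots. In Col-0 white light the highest of them, IRT1, had a mean of 792 normalized counts, against 708 for ELIP1. The amount of root tissue in each group was not tested. The summed root markers lay between 2043 and 2202 normalized counts over 4 libraries of Col-0, against 1827 (white light) and 2214 (low R:FR) in hfr1 pil1. These sums hide opposite moves, since in hfr1 pil1 the iron transporter gene IRT1 went from 1179 to 395 while PRP3 went from 198 to 679 and CASP1 from 163 to 529.

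By the RefSeq annotation of TAIR10.1, UVR8 spans bases 25554416 to 25559499 of chromosome 5 on the minus strand, with 13 exons. RUP1 (bases 21216772 to 21218351) and RUP2 (bases 8005097 to 8006630) lie on the plus strand of the same chromosome and have 1 exon each. ELIP1 (bases 8084405 to 8085669 of chromosome 3, minus strand) and ELIP2 (bases 8418242 to 8419325 of chromosome 4, plus strand) have 3 exons each. None of the 5 overlaps another gene of this annotation. Reads of antisense or unannotated transcripts were not checked. The coding sequences of RUP1 and RUP2 have 1158 and 1107 bases and were identical at 70.9% of 1046 aligned bases, with a longest identical run of 16. Those of ELIP1 and ELIP2 have 588 and 582 bases and were identical at 78.9% of 564 aligned bases, with a longest identical run of 26. The read length is not given in the sources used here, so a small exchange of reads between the ELIP copies cannot be checked.

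The promoters of both paralog pairs are shown because both ELIP genes were called lower under low R:FR in Col-0, but only RUP2 of the RUP pair was. Each line gives the 250 bases before the annotated gene start, 5′ to 3′ on the gene's strand (RefSeq, TAIR10.1). Capitals mark ACGT, the core bound by HY5 and other bZIP proteins, or the G-box CACGTG that contains it.
ELIP1, chr3:8085670-8085919, minus strand: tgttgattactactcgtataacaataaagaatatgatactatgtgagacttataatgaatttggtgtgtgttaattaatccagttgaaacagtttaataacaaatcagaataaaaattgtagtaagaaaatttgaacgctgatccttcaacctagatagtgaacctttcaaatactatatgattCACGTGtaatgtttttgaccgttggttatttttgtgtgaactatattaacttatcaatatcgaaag
ELIP2, chr4:8417992-8418241, plus strand: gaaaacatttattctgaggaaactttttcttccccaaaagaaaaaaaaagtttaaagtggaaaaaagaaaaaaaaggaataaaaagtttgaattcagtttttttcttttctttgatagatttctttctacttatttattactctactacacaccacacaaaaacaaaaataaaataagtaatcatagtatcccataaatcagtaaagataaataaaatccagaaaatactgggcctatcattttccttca
RUP1, chr5:21216522-21216771, plus strand: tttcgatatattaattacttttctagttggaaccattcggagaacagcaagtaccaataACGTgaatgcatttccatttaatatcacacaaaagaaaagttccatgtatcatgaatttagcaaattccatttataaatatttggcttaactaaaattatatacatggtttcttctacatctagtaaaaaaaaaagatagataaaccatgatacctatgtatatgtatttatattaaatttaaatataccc
RUP2, chr5:8004847-8005096, plus strand: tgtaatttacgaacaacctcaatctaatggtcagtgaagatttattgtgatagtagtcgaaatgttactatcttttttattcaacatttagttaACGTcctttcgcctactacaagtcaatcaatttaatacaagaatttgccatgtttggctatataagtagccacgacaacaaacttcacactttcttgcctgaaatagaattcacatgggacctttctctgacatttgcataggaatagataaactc

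The ELIP1 window holds a G-box that begins 66 bases before the gene start, and the ELIP2 window holds no core. The windows of RUP1 and RUP2 hold 1 core each, beginning at positions -191 and -156 from the start. Of 27443 promoters of nuclear protein-coding genes, 44.1% hold a core and 6.49% a G-box in a window of this length, searched on both strands. Within 1000 bases there were 7 cores before ELIP1, 4 before ELIP2, 6 before RUP1, 4 before RUP2 and 0 before UVR8, against a mean of 2.21 over all promoters, of which 85.0% hold at least 1. The palindrome GACGTC, which also contains the core, was in none of the 5 windows of either length, and 7.15% of promoters hold it within 1000 bases. The evening element AAAATATCT was found once within 1000 bases, 433 bases before UVR8, where 7.24% of promoters hold it. These are matches of letters and were not tested as binding sites.

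**Figure D1:**
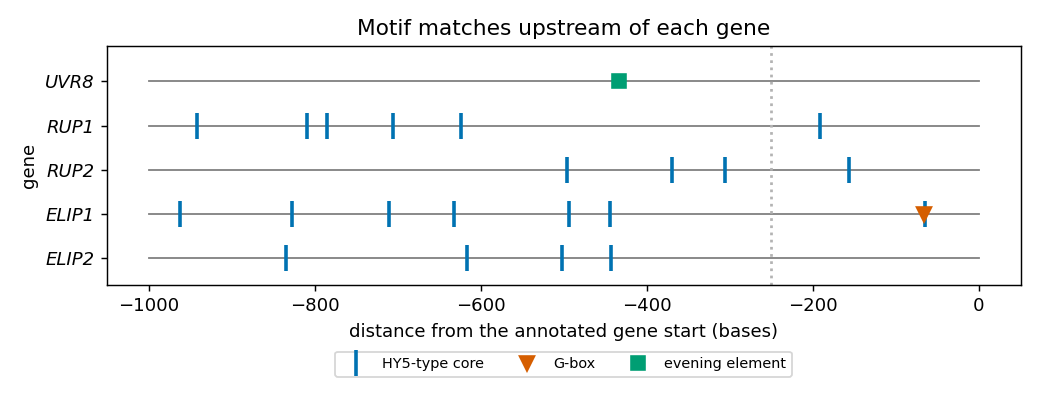
Position of motif matches in the 1000 bases upstream of each gene, by distance from the annotated gene start in bases (horizontal axis). The dotted line marks the 250 bases shown as sequence, blue bars mark the core, the orange triangle the G-box and the green square the evening element. The G-box of ELIP1 is the match nearest to a gene start, and UVR8 has no core.

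Per kilobase of transcript, UVR8 and ELIP1 were the most abundant of the 5 in Col-0 white light. UVR8 stood at 626 and 651 normalized counts per kilobase and ELIP1 at 775 and 593, so these did not differ beyond the spread of the libraries. ELIP2 followed at 314 and 283, RUP2 at 121 and 129, and RUP1 at 46.8 and 57.7, each apart from its neighbour in both libraries. In Col-0 low R:FR the order was UVR8 (561 and 551), ELIP1 (153 and 173) and ELIP2 (85.8 and 67.2), again apart. RUP2 (48.8 and 61.3) and RUP1 (53.6 and 47.1) overlapped there. In hfr1 pil1 low R:FR, UVR8 stood at 571, ELIP1 at 294, ELIP2 at 178, RUP1 at 70.9 and RUP2 at 63.1 normalized counts per kilobase, in 1 library each. The genes thus spanned a wide range in white light, and the ELIP genes came nearer to the RUP genes in low R:FR.

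**Figure D2:**
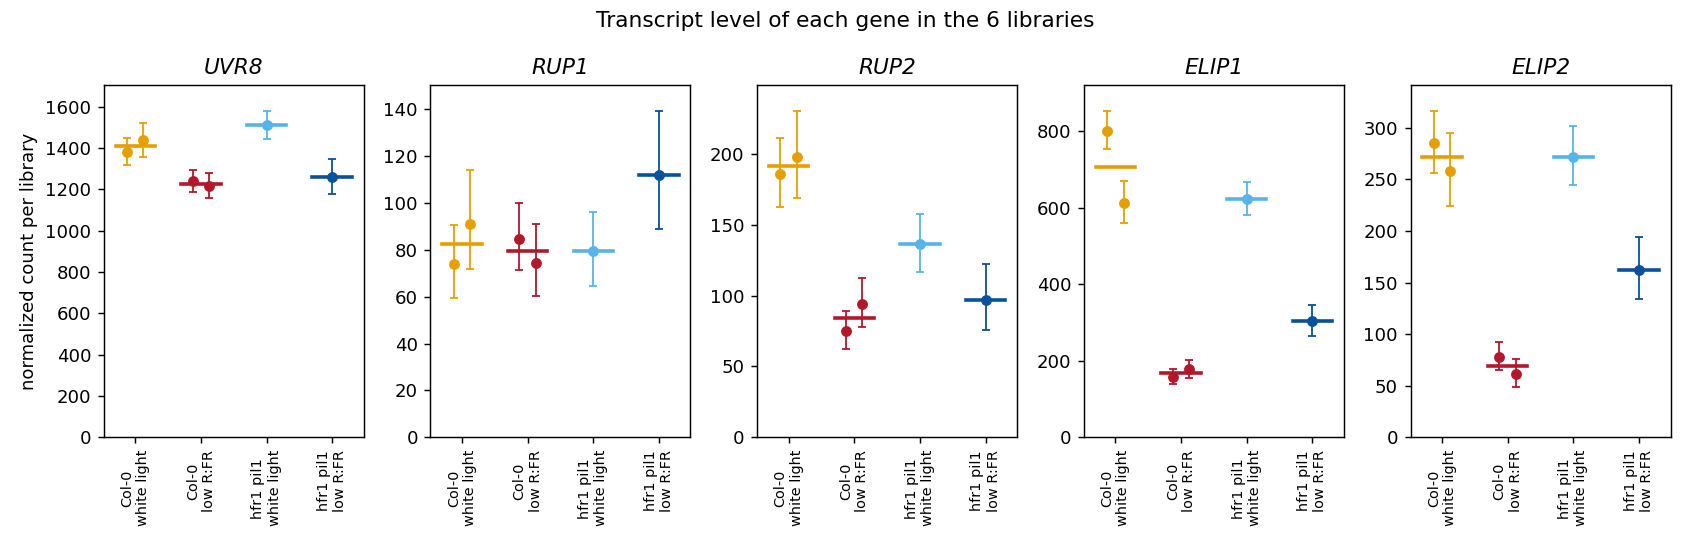
Normalized counts (vertical axis, from 0) of each gene in the 6 libraries, by genotype and light. Points are libraries, bars are exact 95% Poisson intervals of counting error, and horizontal lines are group means. Both ELIP genes are lowest in Col-0 low R:FR, and the hfr1 pil1 low R:FR library lies between these and white light.

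The first comparison asked what 96 h of low R:FR did in Col-0. Both ELIP genes fell about as much as each other, RUP2 fell less, RUP1 did not pass the test, and UVR8 moved little. Changes are edgeR's fitted log2 fold changes with an approximate standard error (SE), called at a Benjamini-Hochberg adjusted p under 0.05 over all 20049 tested genes. In bulk tissue, fewer cells that use a gene and less of its RNA per cell cannot be told apart.

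ELIP1 stood at 802 and 614 normalized counts in white light and at 158 and 179 in low R:FR. Both low R:FR libraries lay far below both white light libraries. The log2 fold change was -2.09 ± 0.12 (SE, n = 2 libraries per group, edgeR, adjusted p = 2.31e-08), or 4.26-fold lower. ELIP2 stood at 285 and 258 in white light and at 78.0 and 61.1 in low R:FR. Its groups did not overlap either. It fell by 1.95 ± 0.13 on the log2 scale (SE, edgeR, adjusted p = 6.24e-08), or 3.88-fold. Of the 20111 genes compared, 111 had a lower ratio of deposited values than ELIP1 and 136 a lower one than ELIP2.

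RUP2, the feedback gene that was the more abundant of its pair in white light, stood at 186 and 198 normalized counts there and at 74.9 and 94.0 in low R:FR. It was lower in both low R:FR libraries (-1.19 ± 0.13 SE, edgeR, adjusted p = 8.54e-06), or 2.28-fold. RUP1 stood at 73.9 and 91.1 in white light and at 84.7 and 74.4 in low R:FR. These ranges overlapped, and its log2 fold change was -0.02 ± 0.16 (SE, edgeR, adjusted p = 0.929), with an interval of 2 SE from -0.34 to 0.30. UVR8, the receptor, stood at 1382 and 1438 in white light and at 1239 and 1218 in low R:FR. The libraries did not overlap, and the change was small (-0.20 ± 0.06 SE, edgeR, adjusted p = 0.0212). The UVR8 call was lost when Col-0 white light library 2 or either Col-0 low R:FR library was left out (edgeR, adjusted p = 0.116, 0.0518 and 0.0786), and with DESeq2 (adjusted p = 0.221). In all, 4 of the 5 genes were called, where 48.3% of all tested genes were. All 4 were lower, where 25.3% of all tested genes were, and 0 were called higher, where 23.0% were (RUP1 was the exception, DESeq2 called 3 lower and 0 higher, and 4 had an unadjusted p under 0.05). Their median log2 ratio of deposited values was -1.09, against -0.02 over all 20111 genes. Of the green tissue markers, 2 of the 3 that could be tested fell as well, and the authors' means of the others gave log2 ratios of -1.10 (RBCS1A) and -0.95 (GAPA) with no test. The part of green tissue in the fall of the ELIP genes was not tested.

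**Figure D3:**
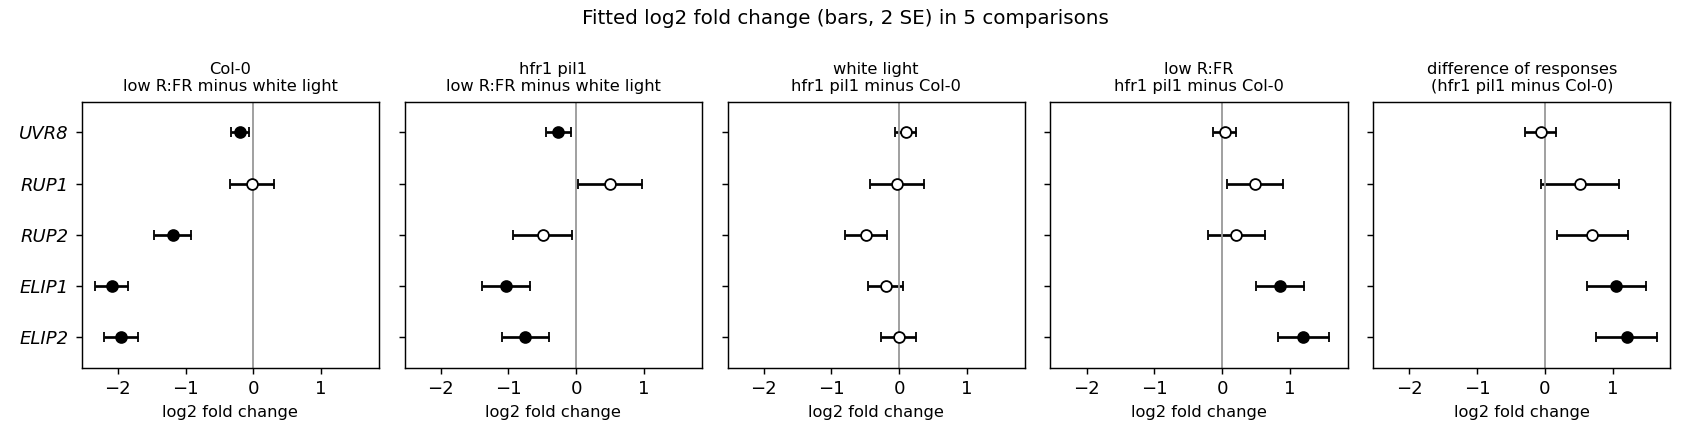
Fitted log2 fold change (horizontal axis) of each gene in the 5 comparisons, with bars of 2 SE. Filled points were called at an adjusted p under 0.05 and open points were not. ELIP1 and ELIP2 lie near -2 in Col-0 and nearer to 0 in hfr1 pil1. They lie above 0 for hfr1 pil1 against Col-0 in low R:FR, and in the difference of responses.

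The second comparison asked what low R:FR did in hfr1 pil1. ELIP1 stood at 623 normalized counts in white light and at 304 in low R:FR (-1.03 ± 0.18 SE, edgeR, adjusted p = 0.000464). ELIP2 stood at 272 and 162 (-0.75 ± 0.17 SE, edgeR, adjusted p = 0.0044), a call that DESeq2 did not make (adjusted p = 0.151). Both were lower in low R:FR, by 2.05-fold and 1.68-fold. UVR8 went from 1511 to 1261 (-0.26 ± 0.09 SE, edgeR, adjusted p = 0.0416) and lost the call with TMM factors (edgeR, adjusted p = 0.0568) and with DESeq2 (adjusted p = 0.336). RUP2 stood at 136 and 96.8 (-0.49 ± 0.22 SE, edgeR, adjusted p = 0.0935), with an interval of 2 SE from -0.93 to -0.06. RUP1 stood at 79.3 and 112 (0.50 ± 0.24 SE, edgeR, adjusted p = 0.118), from 103 and 81 reads. Neither RUP gene passed the test in this genotype. Called were 3 of the 5 genes, where 37.0% of tested genes were. With all 3 lower, where 18.6% of tested genes were called lower, and 0 higher, where 18.4% were (DESeq2 called 1 lower and 0 higher, and 4 genes had an unadjusted p under 0.05), the median log2 ratio of the 5 was -0.45, against -0.01 over all genes. Green tissue markers fell in 2 of 3 tests here too, with RBCS1A at -1.25 and GAPA at -1.04 without a test. Of 9 root markers 5 rose and 1 fell, with a median log2 ratio of 0.71, and the part of either tissue was not tested.

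The third comparison set the genotypes side by side in low R:FR, where the ELIP genes stood apart. ELIP1, at 158 and 179 normalized counts in Col-0, reached 304 in hfr1 pil1, with a 95% Poisson interval of counting error from 265 to 347. It was 1.81-fold higher in hfr1 pil1 (0.86 ± 0.18 SE, edgeR, adjusted p = 0.0219). Without Col-0 low R:FR library 1 the call was lost at 0.77 (edgeR, adjusted p = 0.0769, in a range from 0.000256 to 0.0769 over leaving out each Col-0 library). ELIP2, at 78.0 and 61.1 in Col-0, reached 162 in hfr1 pil1, with a counting interval from 134 to 194. It was 2.30-fold higher (1.20 ± 0.19 SE, edgeR, adjusted p = 0.00399) and was called without each Col-0 library in turn. RUP1, at 112 in hfr1 pil1 against 84.7 and 74.4 in Col-0, did not pass (0.48 ± 0.21 SE, edgeR, adjusted p = 0.318). RUP2 (0.21 ± 0.21 SE) and UVR8 (0.04 ± 0.08 SE) did not pass either (edgeR, adjusted p = 0.742 and 0.905). Of 20111 genes, 34 had a higher ratio of deposited values than ELIP2 and 114 a higher one than ELIP1. Called were 2 of the 5 genes, where 2.40% of tested genes were. With both higher and 0 lower, against 0.988% and 1.42% of tested genes (DESeq2 called ELIP1 higher and gave ELIP2 no adjusted p, 0 were lower by either tool, and 3 genes had an unadjusted p under 0.05), the median log2 ratio of the 5 was 0.44, against -0.01 over all genes.

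In white light 0 of the 5 genes were called between the genotypes, where 2.46% of tested genes were, 0.569% higher and 1.90% lower (edgeR; DESeq2 called 0, and 1 gene had an unadjusted p under 0.05). That gene was RUP2, at 136 normalized counts in hfr1 pil1 against 186 and 198 in Col-0 (-0.49 ± 0.15 SE, edgeR, adjusted p = 0.138). ELIP1 in hfr1 pil1, at 623, lay within the 802 and 614 of Col-0, and ELIP2, at 272, lay within 285 and 258. The intervals of 2 SE ran from -0.46 to 0.06 for ELIP1, from -0.26 to 0.25 for ELIP2, from -0.43 to 0.37 for RUP1 and from -0.05 to 0.26 for UVR8. Of 9 root markers 3 were lower and 1 higher in hfr1 pil1 in this light.

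The difference between the 2 responses was itself tested. It shares its libraries with the comparisons above and is no independent support for them. The fall under low R:FR was smaller in hfr1 pil1 than in Col-0 by 1.06 ± 0.22 on the log2 scale for ELIP1 (SE, edgeR, adjusted p = 0.019) and by 1.21 ± 0.22 for ELIP2 (SE, edgeR, adjusted p = 0.0109). DESeq2 did not call ELIP1 (adjusted p = 0.0564) and gave ELIP2 an unadjusted p of 0.00546 with no adjusted p. For RUP2 the difference was 0.70 ± 0.26 (SE, edgeR, adjusted p = 0.189), for RUP1 0.52 ± 0.29 (SE, edgeR, adjusted p = 0.416), and for UVR8 -0.06 ± 0.11 (SE, edgeR, adjusted p = 0.852). Called were 2 of the 5 genes, where 3.77% of tested genes were. With both above 0 and 0 below, against 1.98% and 1.80% of tested genes (DESeq2 called 0, and 3 genes had an unadjusted p under 0.05), the ELIP genes were the called members. Among 9 root markers 2 had a higher and 1 a lower response in hfr1 pil1, with a median of 0.86, against 0.00 over all genes. Their part in the ELIP result was not tested.

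In Col-0 the ratio of the 2 RUP genes did not overlap between the lights, while the ratio of the 2 ELIP genes did. The pairs were not tested against each other. Per transcript length, RUP1 stood at 0.386 and 0.447 times RUP2 in Col-0 white light and at 1.10 and 0.769 times in Col-0 low R:FR. The groups did not overlap. In hfr1 pil1 the ratio was 0.565 under white light and 1.12 under low R:FR. The mean log2 ratio was 1.15 higher in Col-0 low R:FR than in white light (exact permutation test, two-sided, p = 0.333, n = 2 per group, the smallest p this design allows). ELIP1 stood at 2.47 and 2.09 times ELIP2 in Col-0 white light and at 1.78 and 2.57 times in Col-0 low R:FR. These ranges overlapped (difference of mean log2 ratios -0.09, exact permutation test, two-sided, p = 1, n = 2). In hfr1 pil1 the ratio was 2.01 under white light and 1.65 under low R:FR.

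**Figure D4:**
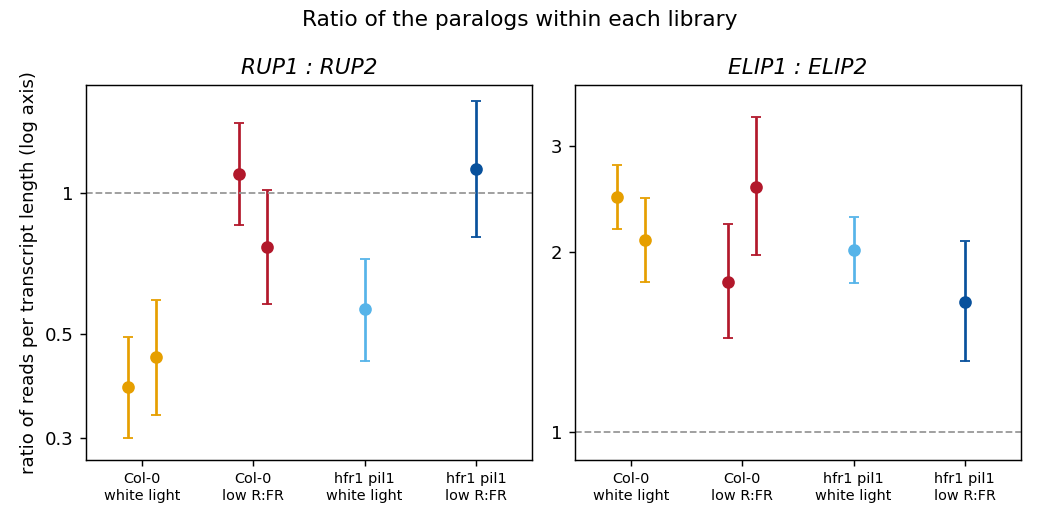
Ratio of RUP1 to RUP2 and of ELIP1 to ELIP2 in reads per transcript length (vertical log axis) in each library, with exact 95% binomial intervals of counting error. The RUP ratio lies below 1 in all white light libraries and near 1 in low R:FR, whereas the ELIP ratio lies above 1 in all 6 libraries.

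The genes around UVR8 in its pathway went both ways in Col-0. Of 20 listed partners and regulators, 7 rose and 4 fell, where 23.0% and 25.3% of all tested genes did, and the median log2 ratio was 0.14. DESeq2 called 7 of the 20. The phytochrome-interacting factors PIF4 (from 144 to 978 normalized counts, 2.77 ± 0.09 SE) and PIF5 (318 to 902, 1.50 ± 0.07 SE), which drive elongation growth, rose most. The MYB factor gene MYB73, whose protein binds UVR8, rose from 293 to 725 (1.31 ± 0.08 SE) and MYB77 from 71.5 to 141 (1.00 ± 0.18 SE). BBX24, a B-box protein gene, rose from 1029 to 1870 (0.86 ± 0.07 SE). HYH, the close homologue of HY5, fell from 339 to 164 (-1.05 ± 0.09 SE). HY5 itself stood at 232 and 254 in white light and at 170 and 172 in low R:FR (-0.50, edgeR, adjusted p = 0.00094), a gene named after its values were seen, as were MYB13, SPA3, BES1 and BIM1, the other genes called. Adjusted p of the 6 genes ranked by size lay between 1.2e-10 for PIF4 and 0.000566 for MYB77 (edgeR). COP1, at a mean of 448 normalized counts before and 417 after, did not pass, nor did SPA1, SPA2 and SPA4, which encode its partners.

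In hfr1 pil1 7 of the 20 partners rose and 1 fell, where 18.4% and 18.6% of tested genes did, with a median log2 ratio of 0.22. DESeq2 called 5 of the 20 here. PIF4 (2.65 ± 0.13 SE), PIF5 (1.51 ± 0.11 SE), BBX24 (1.10 ± 0.09 SE) and BIM1, a brassinosteroid-signalling gene (0.72 ± 0.10 SE), ranked highest by size (edgeR, adjusted p from 2.16e-08 to 9.57e-05). Between the genotypes in white light 0 of 20 were called, where 2.46% of tested genes were (edgeR; DESeq2 called 0, and 4 genes had an unadjusted p under 0.05), with CO at 0.41, WRKY36 at -0.41, PIF5 at -0.30 and BBX25 at -0.28 ranked highest by size. In low R:FR MYB73 was lower in hfr1 pil1, at 430 against 754 and 696 in Col-0 (-0.76 ± 0.10 SE, edgeR, adjusted p = 0.00181), the 1 call among 20, where 2.40% of tested genes were called and 1.42% were lower. MYB77 (-1.08), PIF4 (-0.30) and BIM1 (0.30) did not pass. MYB77 passed without Col-0 low R:FR library 2 (edgeR, adjusted p = 0.00862) or either Col-0 white light library (0.0143 and 0.014). For the difference of the responses MYB73 was again the 1 called gene of 20, where 3.77% of tested genes were called and 1.80% lay below 0 (-0.75 ± 0.15 SE, edgeR, adjusted p = 0.0152), while MYB77 (-1.22), CO (-0.58) and BIM1 (0.46) did not pass. DESeq2 did not call MYB73 there (adjusted p = 0.206).

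The genes listed as targets of UV-B and HY5 mostly moved with the ELIP genes. The list was not split by whether UV-B or HY5 induces or represses each gene. Of 19 listed targets, 17 fell and 2 rose in Col-0, where 25.3% and 23.0% of tested genes did, with a median log2 ratio of -1.44 against -0.02 over all genes. DESeq2 called 13 of the 19. These targets were listed with earlier results of these data known, so their direction is no independent evidence. CHS, chalcone synthase, stood at 10432 and 10014 normalized counts in white light and at 920 and 771 in low R:FR (-3.59 ± 0.09 SE). The anthocyanin regulator MYB75 went from 215 to 10.8 (-4.34 ± 0.19 SE), and the flavonol synthase gene FLS1 from 1896 to 265 (-2.84 ± 0.08 SE). F3H, a flavanone hydroxylase gene, went from 2186 to 318 (-2.78 ± 0.09 SE) and the chalcone isomerase gene CHI from 926 to 171 (-2.44 ± 0.08 SE). GPX7, a plastid glutathione peroxidase gene, went from 55.8 to 4.72 (-3.50 ± 0.30 SE). In low R:FR GPX7 stood below the filter value of 10.8 normalized counts and MYB75 at about that value. The log2 ratios of deposited values were -2.10 for GPX7 and -3.39 for MYB75. Adjusted p of these 6 genes lay between 3.11e-11 for CHS and 7.79e-07 for GPX7 (edgeR). The genes that rose were MYB7 (0.62) and the photolyase gene UVR3 (0.49), named after their values were seen.

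In hfr1 pil1 10 of the 19 targets fell, 1 rose (MYB7) and 8 did not pass, where 18.6% and 18.4% of tested genes were called lower and higher, with a median log2 ratio of -0.64. DESeq2 called 7 of the 19 here. UGT84A1, a glucosyltransferase gene for hydroxycinnamic acids, went from 92.4 to 11.1 (-3.05 ± 0.40 SE), and MYB75 from 165 to 29.0 (-2.50 ± 0.28 SE). The low R:FR value of UGT84A1 lay near the filter of 10.8 normalized counts, and its log2 ratio of deposited values was -2.24. FLS1 (-1.91 ± 0.12 SE) and F3H (-1.82 ± 0.13 SE) fell as well. Adjusted p of these 4 genes lay between 9.89e-08 for FLS1 and 6.32e-05 for UGT84A1 (edgeR). In white light F3H and CHS were lower in hfr1 pil1 (F3H at -0.49 ± 0.10 SE, edgeR, adjusted p = 0.0165), 2 of 19 where 1.90% of tested genes were called lower. CHS lay at -0.41 ± 0.10 SE, and DESeq2 called 0 of the 19 between the genotypes in this light. BBX31 (-0.72), SIG5 (-0.47) and NAC13 (-0.46) did not pass.

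In low R:FR 4 of the 19 targets were higher in hfr1 pil1 and 0 lower, where 0.988% and 1.42% of tested genes were, with a median of 0.46 (edgeR; DESeq2 called 3, and 11 genes had an unadjusted p under 0.05). CHS stood at 2628 in hfr1 pil1 against 920 and 771 in Col-0 (1.63 ± 0.10 SE, edgeR, adjusted p = 1.98e-06). The flavonol regulator MYB111 stood at 59.4 against 25.2 and 22.7 (1.30 ± 0.27 SE, edgeR, adjusted p = 0.023), a call lost without Col-0 low R:FR library 2 (edgeR, adjusted p = 0.0714). FLS1 (0.88 ± 0.11 SE, edgeR, adjusted p = 0.00131) and CHI were the others, and MYB75 (1.43) did not pass. The difference of the responses was called above 0 for 7 of 19 targets and below 0 for 0, where 1.98% and 1.80% of tested genes were. DESeq2 called 4, and 13 had an unadjusted p under 0.05. CHS (2.04 ± 0.14 SE), MYB75 (1.83 ± 0.44 SE) and MYB111 (1.36 ± 0.31 SE) were among them (edgeR, adjusted p = 2.52e-05, 0.0363 and 0.0295), and BBX31 (1.38) did not pass. Without Col-0 low R:FR library 1 or 2 the MYB75 call was lost (edgeR, adjusted p = 0.0879 and 0.0596), as the MYB111 call was without library 2 (edgeR, adjusted p = 0.0762).

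**Figure D5:**
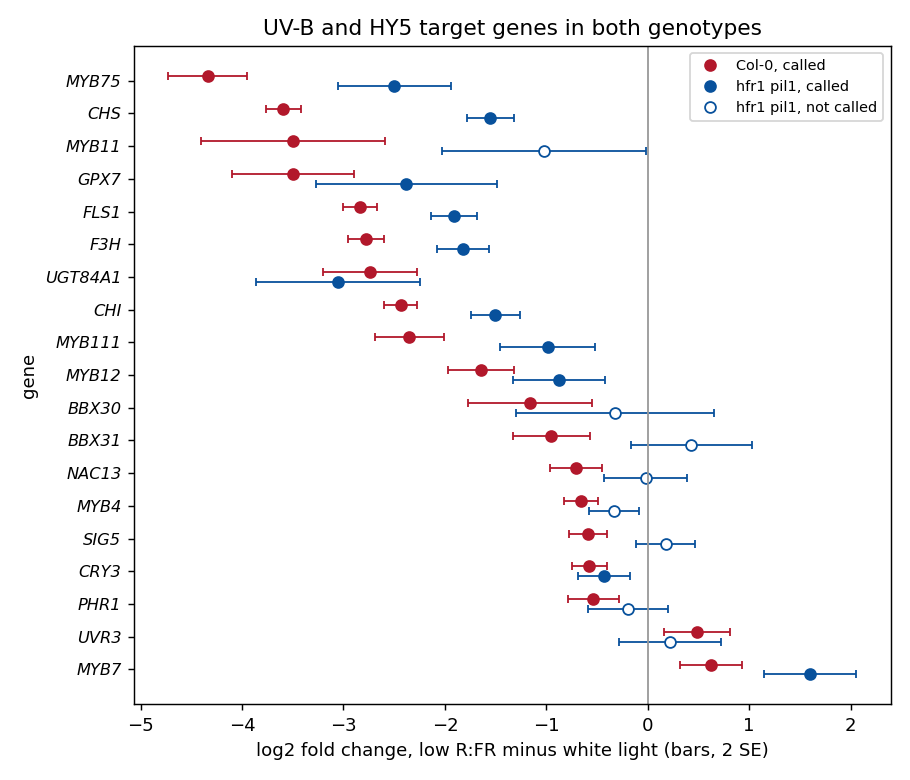
Fitted log2 fold change from white light to low R:FR (horizontal axis, bars of 2 SE) of the 19 UV-B and HY5 target genes in Col-0 (red) and hfr1 pil1 (blue), ordered by the Col-0 value. Filled points were called. All genes but MYB7 and UVR3 lie below 0 in Col-0, and the hfr1 pil1 points lie to the right of the Col-0 points for all genes but UGT84A1 and UVR3.

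In Col-0 the measured relatives of the ELIP genes had smaller changes than the ELIP genes, a difference that was not tested. Of 15 listed genes of the ELIP family and of photoprotection, APX2 had too few reads and PSBS could not be split into libraries. Of the 13 tested, 8 fell and 1 rose in Col-0, where 25.3% and 23.0% of tested genes did, with a median log2 ratio of -0.39 over the 14 measured. DESeq2 called 9 of the 13. Fitted changes ran from -1.08 for VTE1 to 1.21 for ZAT12. VTE1, tocopherol cyclase, went from 502 to 239 normalized counts (-1.08 ± 0.08 SE). SEP1, a stress-enhanced protein gene of the same extended family, went from 2866 to 1727 (-0.73 ± 0.07 SE). LIL3:1, a light-harvesting-like protein gene, went from 1725 to 1048 (-0.72 ± 0.07 SE) and VTC2, an enzyme gene of ascorbate synthesis, from 5905 to 3794 (-0.64 ± 0.06 SE). The zinc finger gene ZAT12 rose from 39.0 to 92.5 (1.21 ± 0.19 SE). Adjusted p of these 5 genes lay between 2.71e-07 for VTE1 and 0.000182 for ZAT12 (edgeR). PSBS, the sensor protein gene of energy-dependent quenching, stood at 23205 and 13048 in the authors' means, a log2 ratio of -0.83 with no test.

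In hfr1 pil1 7 of the 13 fell and 2 rose, where 18.6% and 18.4% of tested genes did, with a median of -0.33. DESeq2 called 6 of the 13 here. LIL3:1 (-1.16 ± 0.11 SE) and SEP1 (-0.94 ± 0.10 SE) fell and ZAT12 rose (1.64 ± 0.31 SE), with adjusted p from 3.61e-06 to 0.00107 (edgeR), and PSBS lay at -0.78 with no test. The values of LIL3:1 and ZAT12 were larger in size than those of both ELIP genes in this genotype. In low R:FR 0 of the 13 were called between the genotypes, where 2.40% of tested genes were (edgeR; DESeq2 called 0, and 3 genes had an unadjusted p under 0.05). ZAT10 lay at -0.46, ZEP at 0.24, VTE1 at 0.22 and LIL3:1 at -0.19. In white light ZEP, the zeaxanthin epoxidase gene (-0.45 ± 0.08 SE), and VTE1 (-0.40 ± 0.10 SE) were lower in hfr1 pil1 (edgeR, adjusted p = 0.011 and 0.0488), 2 of 13 where 1.90% of tested genes were called lower, while ZAT12 (-0.43) and VDE (0.31) did not pass. The VTE1 call was lost without any of the 4 Col-0 libraries (edgeR, adjusted p from 0.0632 to 0.0709). The difference of the responses was called for ZEP (0.69 ± 0.11 SE) and VTE1 (0.62 ± 0.15 SE, edgeR, adjusted p = 0.00563 and 0.0408), 2 of 13 where 1.98% of tested genes were called above 0, and not for ZAT10 (-0.64) and LIL3:1 (-0.43). The VTE1 call was lost without Col-0 low R:FR library 1 or 2 (edgeR, adjusted p = 0.0922 and 0.0679).

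The genes whose pattern lay nearest to each member were sought among the 7529 genes that have a symbol and average 54.2 normalized counts or more, by the root mean square difference of centred log2 values over the 4 columns. For ELIP1 these were MYB111 (0.10), HPL1 (0.12) and UGT84A2 (0.14), and ELIP2 ranked 7 at 0.17. For ELIP2 they were CYP707A2 (0.06), MYB111 (0.08) and cPT4 (0.13), and ELIP1 ranked 6. MYB111 was thus near to both ELIP genes. For RUP2 they were VTE1 (0.03), RXW8 (0.04) and EXPB3 (0.06), while RUP1 ranked 5089 at 0.52. For RUP1 they were CAMBP25, ZIP4 and LBO1, at 0.01 to 0.02. For UVR8, whose small changes many genes match, they were LSM2, HTB1 and VIP3, all at 0.01.

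None of the neighbouring genes in the table that could be tested next to the ELIP genes shared their size of change. HSFA6B and AT3G22845, which flank ELIP1, stood at -0.14 and -0.02 in Col-0 and did not pass (edgeR, adjusted p = 0.713 and 0.842). APS3, next to ELIP2, fell by 0.51 (edgeR, adjusted p = 0.000895), and AT4G14695 on the other side stood at -0.65 (edgeR, adjusted p = 0.112).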

How the data were processed

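Per the labels, total RNA of seedling shoots was sequenced in 4 samples, 1 per group. The Col-0 columns hold means, per the file headers, and the deposited signal values are read counts that the authors divided by 1 factor per library. Per the submitters' processing notes, Bowtie and TAIR10 were used. For their versions, the counting tool and the use of strand, nothing is given in the sources used here. Values of hfr1 pil1 were whole multiples of 1 step within 0.01 reads, and Col-0 values were sums of multiples of 2 steps, which gave the whole reads of 2 libraries per mean. The 52 and 57 most abundant genes of the Col-0 columns, from 18195 and 13048 normalized counts up, could not be split. Each member had 1 solution. Tested on simulated data, 33502 and 33501 of 33558 genes were split, all rightly.

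The reads went into edgeR 4.0.16 (R 4.3.3) and were fitted by the quasi-likelihood test, with the authors' factors, 4 groups, 6 libraries and 2 residual degrees of freedom. Genes averaging 10.8 normalized counts or more, set from the mean column total, were kept, and the same value was the pseudocount of the log2 ratios of deposited values. Of 20111 genes, 62 had no split and 20049 were tested, with Benjamini-Hochberg adjustment at 0.05. The SE is the fold change over the root of the test's F. In simulated data with 200 changed genes, 92.5% of 2-fold and 99.5% of 4-fold changes in the Col-0 response were recovered over 20049 genes, and 61.5% and 93.5% in the difference of the responses. Poisson intervals cover counting error only. The 2 libraries of a Col-0 mean differed by more than counting error (chi-square per gene 2.46 for white light, 2.73 for low R:FR), so none was taken for a repeat deposit.

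The 5 members, the gene lists, the use of whole reads and the tests were chosen with earlier results of these data known. Beside the members, the text names up to 6 genes of each list with the largest log2 ratio in Col-0 and up to 4 in each other comparison, the 3 genes nearest in pattern to each member, and HFR1 and PIL1. Promoters were read from the RefSeq TAIR10.1 genome, and coding sequences were compared in place of proteins. Alternatives were TMM factors, DESeq2 1.42.0, no filter, other pseudocounts and scalings, and leaving out each Col-0 library.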

Additional observations from a re-analysis of the deposited data

Results flagged for a closer look

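For these genes the response to low R:FR differed between the genotypes by the test of the difference itself (hfr1 pil1 minus Col-0, log2, edgeR, adjusted p under 0.05). No cause was tested. The ELIP genes differed by 1.06 (ELIP1) and 1.21 (ELIP2). Among the UV-B and HY5 target genes, CHS differed by 2.04, MYB75 by 1.83, MYB111 by 1.36, F3H by 0.96, CHI by 0.93, FLS1 by 0.93 and SIG5, a plastid sigma factor gene, by 0.77. ZEP differed by 0.69 and VTE1 by 0.62. MYB73 lay below 0, at -0.75. For this difference DESeq2 called 0 of the 5 members, 0 of the 20 partners, 4 of the 19 targets and 1 of the 13 photoprotection genes. The calls of MYB75, MYB111 and VTE1 also depended on single Col-0 low R:FR libraries, as given above.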

How the results depend on the processing

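Of the members' calls under the alternatives, 151 kept their direction and their side of the threshold, 9 were lost, 1 was gained and 8 changed sign, all 8 of these among differences near 0 that were not called. With DESeq2 the calls of UVR8 in Col-0 (-0.20) and hfr1 pil1 (-0.26), of ELIP2 in hfr1 pil1 (-0.75) and of the ELIP1 difference of responses (1.04) were lost, and with TMM factors that of UVR8 in hfr1 pil1 (-0.24). With no filter RUP2 was called between the genotypes in white light (-0.49). With TMM factors RUP1 in Col-0 came to 0.0081 and ELIP2 between the genotypes in white light to 0.0035, and with DESeq2 the latter came to 0.00047. Leaving out each Col-0 library gave -0.227 to -0.169 for UVR8 and -0.187 to 0.115 for RUP1 in Col-0, and 0.767 to 0.940 for ELIP1 between the genotypes in low R:FR. Between the genotypes in white light it gave -0.199 to 0.103 for RUP1, -0.365 to 0.0219 for ELIP1 and -0.0687 to 0.0772 for ELIP2. With 5 times the pseudocount the log2 ratios in Col-0 were -0.83 (RUP2), -1.775 (ELIP1) and -1.40 (ELIP2), and those of ELIP2 were 0.80 in the genotype contrast under low R:FR and 0.80 in the difference, since a larger pseudocount pulls ratios towards 0. Scaling the columns to 1 total moved the median gene by 0.12 in Col-0 and 0.14 in hfr1 pil1, where RUP1 in Col-0 came to 0.07 and UVR8 to -0.07 and -0.11. Relative to the median gene UVR8 then stood at -0.16 and -0.24.

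DESeq2 called 2308 genes higher and 2503 lower in Col-0, 1632 and 1695 in hfr1 pil1, 17 and 92 between the genotypes under white light, 48 and 108 under low R:FR, and 87 and 103 in the difference. With edgeR and no filter the counts were 388 and 859 under white light, 471 and 677 under low R:FR, and 829 and 756 in the difference. Leaving out each Col-0 library gave 90 to 212 higher and 342 to 635 lower under white light, 150 to 329 higher and 189 to 464 lower under low R:FR, and 284 to 649 above 0 in the difference. The cause of these moves was not tested. No paired analysis was possible because the columns carry no replicate numbers shared between groups. Each hfr1 pil1 group has 1 library, so its own spread was not measured, and at 81 and 70 reads counting error limits RUP1 and RUP2 in the shallowest library.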
